A study of Mus musculus with 15 samples.

Results

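Glutathione transferases and UDP-glucuronosyltransferases are the main conjugating enzymes of the liver. The first attach glutathione to reactive electrophiles, and the second attach a sugar, mostly glucuronate, to bilirubin, steroids, bile acids and drugs, so that the products can be carried out of the hepatocyte into bile or blood. The 2 families were taken here as all protein-coding genes whose symbol starts with Gsta, Gstm, Gstp, Gstt, Gstk, Gsto, Gstz, Mgst, Ugt1a, Ugt2a, Ugt2b or Ugt3a. Of the 55450 gene IDs counted, 46 met this rule, 25 glutathione transferase genes and 21 UDP-glucuronosyltransferase genes. A further 2 matching symbols, Gstp-ps and Gstm2-ps1, are pseudogenes and were left out. The rule uses only symbols and gene types, not levels.

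The samples were livers of 15 female C57BL/6 mice, with 5 mice per group and 1 mRNA library per mouse. Adult mice, named A1 to A5, were aged 6 months and Old mice, named O1 to O5, were aged 22 months. Per the paper these are ages at baseline, before the gavage, so the mice were older when the livers were taken. Both groups were gavaged daily with 120 µL of corn oil as vehicle. PDX mice, named P1 to P5, were likewise aged 22 months at baseline. They received protectin DX, a lipid mediator derived from docosahexaenoic acid, at 30 ng per g of body weight in corn oil. Gavage lasted 9 weeks per the methods, and 8 weeks per the description of the series. Mice were euthanized in batches that are not given for each mouse in the sources used here. Between 22424383 and 36070835 read pairs per mouse were assigned to genes, and levels are given below as CPM, the count of a gene relative to the TMM-scaled total of the library. Values of liver tissue are a mixture, in which fewer cells of a type and less RNA per cell cannot be told apart.

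Of the 46 genes, 38 passed the filter on low counts and were tested, 22 glutathione transferase genes and 16 UDP-glucuronosyltransferase genes. Below the filter were Gsta1, Gsto2, Gstt4, Ugt1a2, Ugt1a8 and Ugt2b38, each with at most 0.902 CPM in any mouse. Ugt2a1 and Ugt2a2 were also below it, with 0 counts in all 15 mice. They have only 30 and 140 exon bases, respectively, that are not shared with another gene. Of the stretches of Gsta1 as long as a read, 90.5% also occur in other genes. Pairs that fit several genes were not counted, so the counts of Gsta1, Ugt2a1 and Ugt2a2 cannot show whether these genes were expressed. Scaled to the length of exon not shared with another gene, the highest mean levels over all mice were those of Mgst1 (701 CPM per kb), Gstm1 (625 CPM per kb), Ugt1a1 (450 CPM per kb), Gsta3 (348 CPM per kb) and Ugt2b36 (224 CPM per kb). The 2 lowest of the tested genes by the same measure were Mgst2 (0.114 CPM per kb) and Gstp2 (0.467 CPM per kb). The order depends on the annotated exon length, which is 4344 bases for Gsta3 and 1473 bases for Gstm1. Without this scaling Gsta3 was above Gstm1, with Adult means of 2039 and 1425 CPM.

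O2 and O5 stood apart from the other mice, and they did so in these families too. Per the paper, they also appeared to be among the frailest at endpoint, with the highest frailty index and the shortest treadmill run between them. O5 had the lowest level of all 15 mice for 23 of the 38 tested members (60.5%, against 28.4% of all 15808 genes tested), and O2 for 8 members (21.1%, against 12.4%). In the summed level of all members, the Old mice had 8606, 4697, 8366, 7818 and 3545 CPM from O1 to O5. The other 3 Old mice lay below every Adult mouse (10902 to 12043 CPM), and the PDX mice had 6902 to 7897 CPM. The class sums and the log2 fold changes of members that involve the Old group are therefore given with and without O2 and O5, while the pathway and marker lists are given for all mice only. O2 and O5 were picked by their expression in these same data, and leaving them out keeps 3 Old mice. The adjusted p values without them are therefore a description and no independent support.

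**Figure D1:**
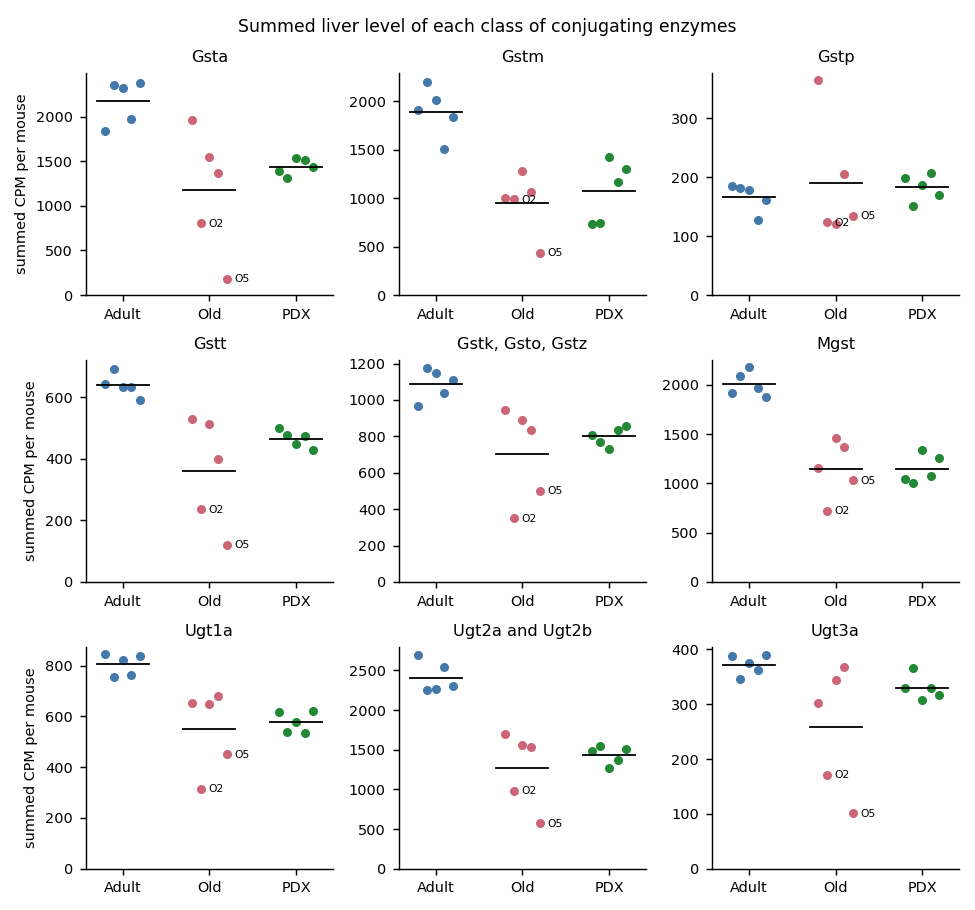
Summed CPM of the tested and untested members of each class in each mouse (points), with the mean of each group as a line. The axes start at 0 and O2 and O5 are named. In 6 of the 9 classes every Old mouse lies below every Adult mouse, and the Gstp class is the one whose Old mean lies above the Adult mean.

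By class, the summed level was lower on average in the Old than in the Adult mice in 8 of 9 classes. The mu class (Gstm) went from 1890.0 ± 255 (SD, n = 5) CPM in the Adult to 951 ± 309 (SD, n = 5) CPM in the Old mice, which is 50.3% of the Adult mean, and the ranges of 1505 to 2198 CPM and 438 to 1275 CPM did not overlap. The Ugt2 genes (Ugt2a and Ugt2b) went from 2408 ± 196 (SD, n = 5) to 1272 ± 475 (SD, n = 5) CPM (52.8% of the Adult mean), again without overlap. The membrane-bound transferases (Mgst) stood at 57.3%, the theta class (Gstt) at 56.4%, the kappa, omega and zeta classes together at 64.7% and the Ugt1a genes at 68.2% of the Adult mean, each without overlap of the 2 groups.

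In the alpha class (Gsta), whose sum stood at 54.0% of the Adult mean, O1 with 1964 CPM was above A1 with 1842 CPM. The Ugt3a genes, at 69.2%, also overlapped. The pi class (Gstp) had 167 ± 24.2 (SD, n = 5) CPM in the Adult and 189.8 ± 104 (SD, n = 5) CPM in the Old mice, 114% of the Adult mean, and O1 alone had 365 CPM. The Old sums of the other 8 classes without O2 and O5 were closer to the Adult sums, at 74.8% for Gsta, 58.7% for Gstm, 75.3% for Gstt, 81.8% for the kappa, omega and zeta classes, 66.2% for Mgst, 81.9% for Ugt1a, 66.4% for Ugt2 and 90.9% for Ugt3a. The Gstp sum was farther from it, at 138% of the Adult mean. Over all members, the Old mean was 57.2% of the Adult mean with all 5 mice and 71.6% without O2 and O5. These sums are a description and were not tested.

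Between Old and Adult, 11 of the 38 tested members had an adjusted p under 0.05 (quasi-likelihood test of edgeR, Benjamini-Hochberg adjustment over all genes), where 6.78% of all 15808 genes did so. Of these, 10 fell in the Old group (2.07% of all genes fell): Gsta4, Gstm1, Gstk1, Mgst1, Ugt1a6b, Ugt2a3, Ugt2b1, Ugt2b5, Ugt2b34 and Ugt2b35. The remaining 1, Ugt1a7c, rose, where 4.71% of all genes rose. Every Old value lay below every Adult value in 15 members, and above in 1, against 4.48% and 3.65% of all genes. Over the 38 members the median log2 fold change was -0.70, against 0.07 over all genes, and 30 of the 38 had a lower mean in the Old group, against 43.2% of all genes. Without O2 and O5, 13 of 39 tested members passed, where 7.12% of all 16275 genes did, with Ugt1a7c (adjusted p = 0.127 in edgeR) and Ugt2b35 (adjusted p = 0.0865 in edgeR) no longer among them and Gstm6, Gstt1, Ugt1a10 and Ugt2b36 added. Without these mice the log2 fold change was -0.96 for Gstm1, -0.59 for Mgst1, -0.67 for Gstk1, -1.04 for Ugt1a6b, -0.62 for Ugt2b5, -0.47 for Ugt2b34 and -0.71 for Ugt2a3, each still past the threshold in edgeR and smaller in size than with all 5 Old mice. The median over these 39 was -0.37, against 0.01 over all genes, and 29 of them had a lower mean in the Old group, against 48.7% of all genes. Leaving out a single mouse changed the count to 1 or 2 without any 1 of the Adult mice, to 5 without O2 and to 10 to 16 without another Old mouse, and to 7 to 9 without a PDX mouse. The count over all genes, 1072 with all mice, became 156 to 243 without an Adult mouse and 691 without O2. It was 1588 to 2178 without another Old mouse and 707 to 879 without a PDX mouse.

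**Figure D2:**
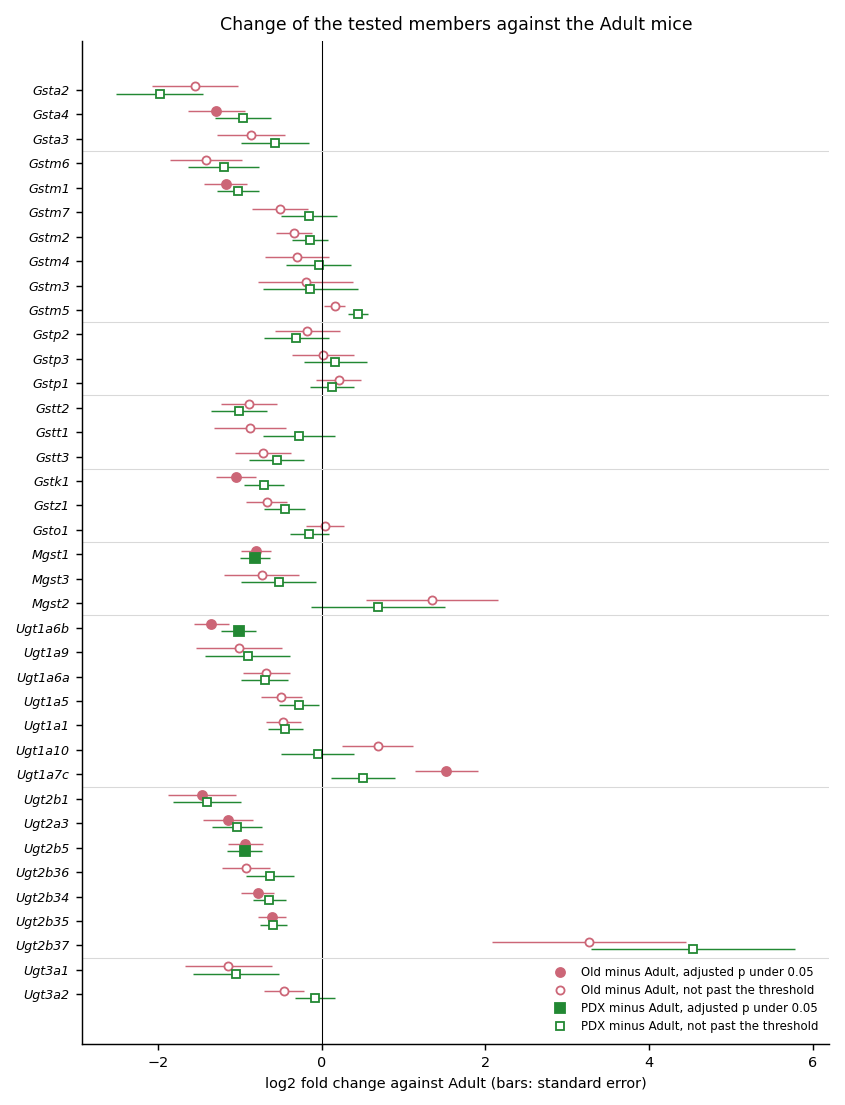
Log2 fold change against the Adult mice of each tested member, ordered by class, with Old as circles and PDX as squares, filled where the adjusted p of edgeR was under 0.05, and bars of 1 standard error. Most members lie left of 0 in both comparisons, while Ugt2b37 lies farthest to the right, at 3.27 and 4.54. The 2 comparisons share the Adult mice.

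Among the glutathione transferases, Gstm1 was the gene of a cytosolic enzyme with the highest level per kb. It had 1460.0, 1628, 1528, 1126 and 1384 CPM in A1 to A5, 645, 624, 851, 683 and 363 CPM in O1 to O5 and 453, 431, 922, 760.4 and 944 CPM in P1 to P5. All Old and all PDX mice were below all Adult mice, and P1 and P2 were below every Old mouse but O5. The log2 fold change was -1.17 ± 0.26 (SE, adjusted p = 0.0246 in edgeR) between Old and Adult. Gstm1 shares 18.9% of its 50-base words, the read length, with other genes, first among them Gstm2-ps1, which itself went from 197 ± 29.6 to 90.3 ± 28.4 CPM (SD, n = 5 each) with a log2 fold change of -1.13 (adjusted p = 0.0289 in edgeR), so the division of counts between them is uncertain.

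Gsta4, which detoxifies the lipid peroxidation product 4-hydroxynonenal, had 103, 101, 93.6, 80.4 and 97.5 CPM in the Adult mice, 48.2, 36.1, 53.8, 47.9 and 9.05 CPM in the Old mice and 34.5, 36.3, 59.3, 45.0 and 69.3 CPM in the PDX mice. Neither older group overlapped with the Adult mice, and O5 was far below its own group. The Old mean was 59.0% lower than the Adult mean (log2 fold change -1.29 ± 0.34, SE, adjusted p = 0.0393 in edgeR), and without O2 and O5 the log2 fold change was -0.92 (adjusted p = 0.0166 in edgeR).

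Of the same class, Gsta3 was the alpha gene with the highest level, and its enzyme is known for inactivating aflatoxin epoxide in mice. It had 1697, 2208, 2187, 1851 and 2254 CPM in the Adult and 1911, 765, 1474, 1303 and 155 CPM in the Old mice. O1 lay within the Adult range and O5 far below all others, and the log2 fold change of -0.86 ± 0.42 (SE) did not pass (adjusted p = 0.194 in edgeR). It was -0.37 without O2 and O5 (adjusted p = 0.122 in edgeR). Gsta2 had 41.5, 43.4, 40.5, 36.5 and 25.5 CPM in the Adult, 5.05, 5.59, 21.4, 12.4 and 19.6 CPM in the Old and 2.96, 3.57, 14.1, 5.65 and 21.2 CPM in the PDX mice. All Old and PDX mice were below all Adult mice, but the spread among the older mice was large and the log2 fold change of -1.55 ± 0.52 (SE) had an adjusted p of 0.0756 in edgeR (-1.52 without O2 and O5, adjusted p = 0.128). Gsta2 shares 49.8% of its 50-base words with other genes, mainly Gsta1.

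Mgst1, a transferase of the endoplasmic reticulum and outer mitochondrial membrane and the member with the highest level per kb, had 1889, 2053, 2148, 1948 and 1847 CPM in the Adult, 1130.5, 709, 1438, 1344 and 1033 CPM in the Old and 1026, 995, 1308, 1055 and 1231 CPM in the PDX mice. The lowest Adult mouse was above the highest mouse of both older groups. It fell between Old and Adult by 0.81 ± 0.18 on the log2 scale (SE, adjusted p = 0.0260 in edgeR) and none of its 50-base words is found in another gene. The other membrane-bound members did not pass: Mgst3 had a log2 fold change of -0.73 (adjusted p = 0.311 in edgeR), and Mgst2, at most 1.73 CPM in any mouse, one of 1.35 (adjusted p = 0.288 in edgeR). These were -0.24 and 0.22 without O2 and O5.

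Gstk1, the kappa class enzyme of mitochondria and peroxisomes, had 110.1, 125, 126, 113 and 116 CPM in the Adult, 60.1, 34.5, 92.3, 69.1 and 29.6 CPM in the Old and 63.3, 70.5, 71.8, 72.5 and 84.8 CPM in the PDX mice. The Old and the PDX mice were again all below the Adult mice, with O2 and O5 the lowest. The Old mean was 51.7% lower (log2 fold change -1.05 ± 0.24, SE, adjusted p = 0.0264 in edgeR). Gstz1, which isomerizes maleylacetoacetate in tyrosine breakdown, had 876 ± 78.3 (SD, n = 5) CPM in the Adult and 550.4 ± 235 (SD, n = 5) CPM in the Old mice and a log2 fold change of -0.67 (adjusted p = 0.102 in edgeR), which was -0.27 without O2 and O5 (adjusted p = 0.127 in edgeR). Gsto1, an omega class enzyme that can reduce dehydroascorbate, stood at 93.3 ± 3.04 (SD, n = 5) and 96.1 ± 38.2 (SD, n = 5) CPM (log2 fold change 0.04 ± 0.24, SE, adjusted p = 0.928 in edgeR), with 43.0 CPM in O2 and 148 CPM in O5 as the ends of the range of all 15 mice, and without these 2 the log2 fold change was 0.06.

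In the theta class no member passed. Gstt1, which conjugates small halogenated hydrocarbons, had 343, 379, 356, 332 and 353 CPM in the Adult and 249.9, 178, 282, 237 and 17.1 CPM in the Old mice. All Old mice were below all Adult mice, but O5 was far below the rest, and the log2 fold change of -0.87 ± 0.44 (SE) had an adjusted p of 0.213 in edgeR. Without O2 and O5 it was -0.45 ± 0.10 (SE, adjusted p = 0.0157 in edgeR), a smaller change with a smaller spread. Gstt2 and Gstt3 had log2 fold changes of -0.88 and -0.72 (adjusted p = 0.112 and 0.184 in edgeR), and of -0.48 and -0.26 without O2 and O5.

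The remaining mu class genes varied. Gstm6 had 122, 154, 139, 113 and 119 CPM in the Adult and 53.1, 40.1, 80.7, 62.5 and 6.06 CPM in the Old mice, without overlap, and a log2 fold change of -1.42 ± 0.44 (SE, adjusted p = 0.0609 in edgeR), which was -0.97 without O2 and O5 and then passed (adjusted p = 0.0244 in edgeR). Gstm2, Gstm3, Gstm4 and Gstm7 had log2 fold changes between -0.51 and -0.19, and none passed. In the fit without O2 and O5 these were -0.09 for Gstm2, -0.46 for Gstm3, 0.19 for Gstm4 and -0.03 for Gstm7, so the direction of Gstm4 turned. Gstm3 ranged from 8.12 CPM in O5 to 170 CPM in O2, so the same group held both ends of its range. Gstm5 had 8.63, 10.7, 10.6, 9.22 and 10.2 CPM in the Adult, 12.9, 8.81, 11.1, 12.1 and 10.2 CPM in the Old and 13.0, 11.8, 14.0, 14.0 and 14.5 CPM in the PDX mice, an order in which each group mean is above the one before it, with a log2 fold change between Old and Adult of 0.16 ± 0.12 (SE, adjusted p = 0.432 in edgeR) and of 0.30 without O2 and O5 (adjusted p = 0.113 in edgeR).

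In the pi class, Gstp1 had 165, 155, 151, 110.3 and 135 CPM in the Adult and 321, 110.1, 89.9, 178 and 128 CPM in the Old mice, where O1 was the highest and O3 the lowest of all 15 mice. The log2 fold changes of Gstp1, Gstp2 and Gstp3 were 0.21 ± 0.27, -0.18 ± 0.40 and 0.02 ± 0.38 (SE), and none passed (adjusted p = 0.654, 0.810 and 0.980 in edgeR). They were 0.47, -0.59 and 0.53 without O2 and O5, and again none passed. Gstp1 and Gstp2 share 33.7% and 54.3% of their 50-base words with other genes, mainly with each other.

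**Figure D3:**
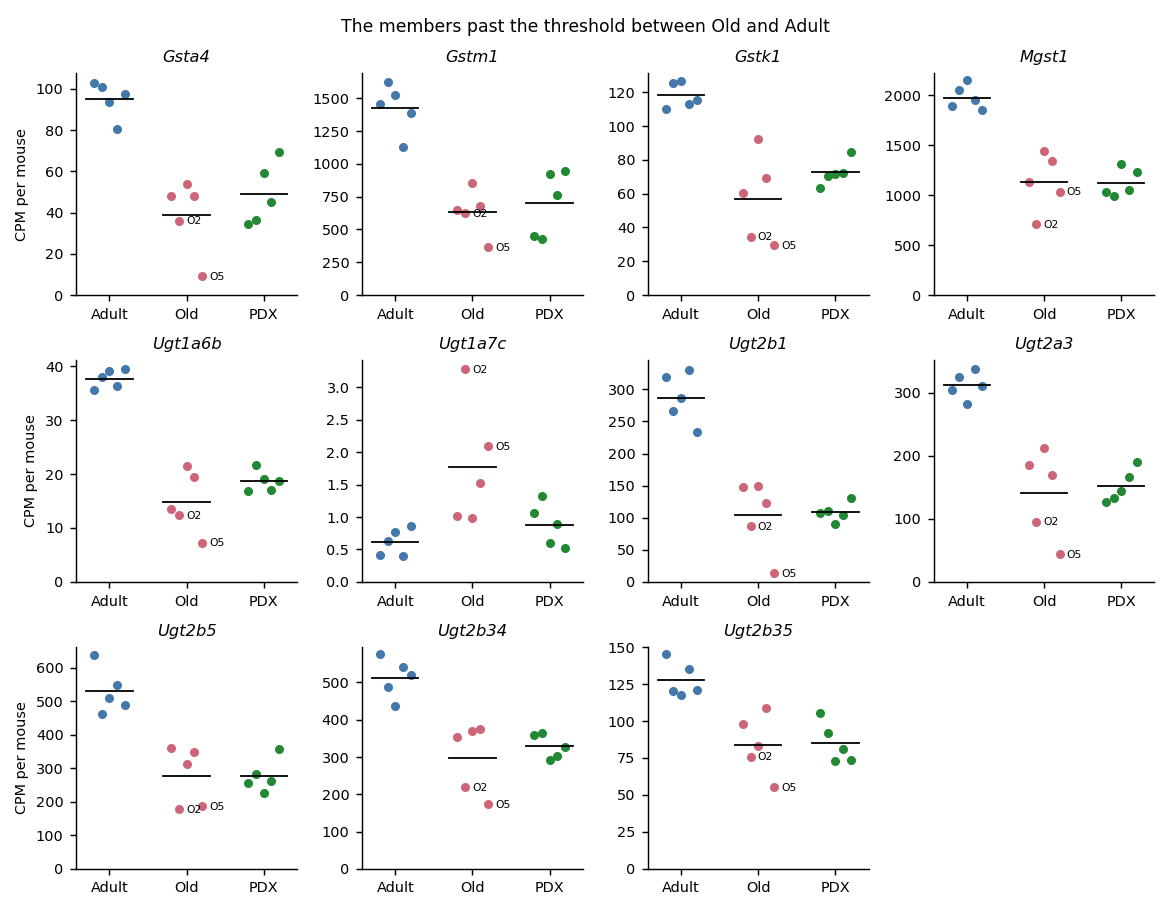
CPM of the 11 members past the threshold between Old and Adult in each mouse (points), with group means as lines and O2 and O5 named. The axes start at 0. In 10 panels all Old mice lie below all Adult mice, and in the Ugt1a7c panel all lie above.

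The Ugt1a genes lie on chromosome 1 in a single locus, where each gene has its own first exon and all share the last exons. Between 39.4% and 49.7% of the exon bases of each gene are its own, and only read pairs assigned to 1 gene were counted, so the counts of a gene come from the parts that are its own. Ugt1a7c differs in that its annotation ends at base 88220002, past the ends of the other Ugt1a genes at 88218997 to 88219004, so its own bases also lie behind the shared last exon. Counts were not split by exon, and the exon behind a change was not determined. Bases that are a gene's own by position can still match another gene. With the shared exons included, Ugt1a6b shares 79.8% of its 50-base words with other genes, first among them Ugt1a6a, and Ugt1a1 shares 80.2%. The division of counts between Ugt1a6b and Ugt1a6a is therefore uncertain. Ugt1a6b, a member of the Ugt1a6 pair that conjugates planar phenols, had 35.6, 38.0, 39.1, 36.3 and 39.5 CPM in the Adult, 13.5, 12.4, 21.4, 19.4 and 7.29 CPM in the Old and 16.9, 21.6, 19.1, 17.1 and 18.7 CPM in the PDX mice. The Adult mice lay within a narrow range, and the highest mouse of either older group, P2, was far below all of them. The Old mean was 60.7% lower (log2 fold change -1.35 ± 0.21, SE, adjusted p = 0.0064 in edgeR), and this was the member with the smallest adjusted p in this comparison. It passed the threshold under each of the 23 alternatives, with adjusted p up to 0.0426.

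Ugt1a7c, at a low level, had 0.422, 0.634, 0.775, 0.403 and 0.861 CPM in the Adult, 1.02, 3.28, 0.980, 1.52 and 2.09 CPM in the Old and 1.07, 1.32, 0.599, 0.893 and 0.516 CPM in the PDX mice. Every Old mouse was above every Adult mouse, O2 and O5 most, while the PDX mice overlapped with both groups. The log2 fold change was 1.52 ± 0.39 (SE, adjusted p = 0.0334 in edgeR), and 0.94 without O2 and O5 (adjusted p = 0.127 in edgeR). Ugt1a1, whose enzyme conjugates bilirubin, had the highest level per kb of the UDP-glucuronosyltransferase genes. It had 539.7, 448, 529, 476 and 513 CPM in the Adult and 438, 172, 366, 474 and 364 CPM in the Old mice. O4 lay within the Adult range and O2 far below all others, and the log2 fold change of -0.47 ± 0.21 (SE) did not pass (adjusted p = 0.163 in edgeR), and was -0.22 without O2 and O5.

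Ugt1a9 had 91.7, 89.0, 81.5, 81.9 and 90.5 CPM in the Adult, 29.8, 35.7, 79.4, 53.6 and 17.9 CPM in the Old and 7.73, 15.2, 80.7, 47.9 and 80.5 CPM in the PDX mice. All older mice were below the Adult mice, but P3, P5 and O3 only slightly and P1 and O5 several fold, and the log2 fold change of -1.01 ± 0.52 (SE) did not pass (adjusted p = 0.223 in edgeR), and was -0.67 without O2 and O5. Ugt1a5, Ugt1a6a and Ugt1a10 had log2 fold changes of -0.49, -0.67 and 0.68 (adjusted p = 0.210, 0.147 and 0.323 in edgeR). The values without O2 and O5 were -0.14, -0.31 and 1.19, of which that of Ugt1a10 passed (adjusted p = 0.0411 in edgeR).

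The Ugt2 genes, which conjugate steroids, bile acids and other lipids, lie together on chromosome 5. Of the 7 tested, 5 fell, where 2.07% of all genes fell, and 6 of 7 had all Old mice below all Adult mice, against 4.48% of all genes. Ugt2b1 had 319, 267, 287, 329.8 and 233 CPM in the Adult, 148, 87.0, 150.0, 123 and 13.1 CPM in the Old and 108, 111, 90.7, 105 and 131 CPM in the PDX mice. It had the lowest fold change of the members that passed, with a log2 fold change of -1.46 ± 0.42 (SE, adjusted p = 0.0480 in edgeR), and without O2 and O5, the mice with the lowest values, it was -1.02 (adjusted p = 0.00184 in edgeR).

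Ugt2b5 had 639, 463, 509.6, 548 and 489 CPM in the Adult, 361, 177, 313, 349 and 187 CPM in the Old and 255, 282, 227, 261 and 357 CPM in the PDX mice. Both older groups were below the Adult mice, and the log2 fold change between Old and Adult was -0.93 ± 0.21 (SE, adjusted p = 0.0258 in edgeR). Ugt2b34, Ugt2b35 and Ugt2a3 fell by 0.78, 0.61 and 1.14 on the log2 scale (adjusted p = 0.0348, 0.0436 and 0.0404 in edgeR). Ugt2b36, the most abundant Ugt2 gene per kb, went from 636 ± 40.1 (SD, n = 5) to 336 ± 160.5 (SD, n = 5) CPM without overlap, but with a log2 fold change of -0.92 ± 0.29 (SE) it did not pass (adjusted p = 0.0664 in edgeR), while without O2 and O5 it was -0.50 and passed (adjusted p = 0.0110 in edgeR). Ugt2b35 went the other way, with -0.40 and an adjusted p of 0.0865 in edgeR without these mice.

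Ugt2b37 was the exception in this cluster. It had 8.23, 2.99, 1.82, 1.46 and 1.43 CPM in the Adult mice, 50.6, 90.1, 3.96, 10.6 and 0.0721 CPM in the Old mice and 135, 163, 37.7, 34.4 and 4.51 CPM in the PDX mice. The Old group held both the lowest value of all 15 mice, in O5, and one of the highest, in O2, and the highest of all were P1 and P2. The log2 fold change between Old and Adult of 3.27 ± 1.19 (SE) did not pass (adjusted p = 0.0926 in edgeR), and neither did that between PDX and Adult of 4.54 ± 1.25 (SE, adjusted p = 0.0667 in edgeR). Both calls depended on the test: in DESeq2 both passed (adjusted p = 0.0292 and 0.00237). In edgeR without O2 and O5 the first was 2.74 and did not pass (adjusted p = 0.0983 in edgeR), and the second was 4.54 and passed (adjusted p = 0.00396 in edgeR). The second also passed with the replicate block (adjusted p = 0.0377 in edgeR) and with the 2 groups alone (adjusted p = 0.00278 in edgeR). Of its 50-base words, 18.3% are shared with other genes, mainly Ugt2b5 and Ugt2b38.

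**Figure D4:**
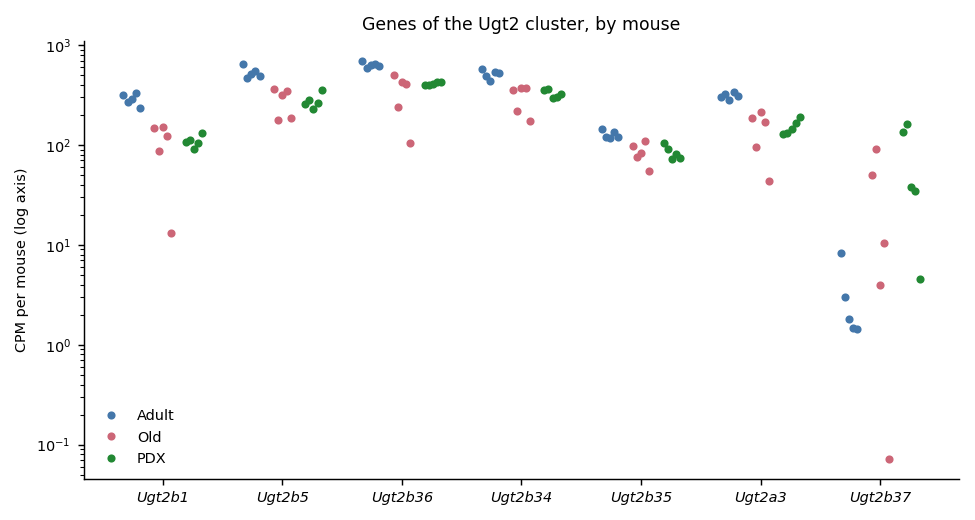
CPM of 7 Ugt2 genes in each mouse on a log axis, with Adult, Old and PDX mice side by side in colour. Ugt2b37 spreads from 0.0721 CPM in O5 to 163 CPM in P2, while the other 6 genes lie lower in both older groups than in the Adult mice.

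The promoters of Ugt2b5, which fell, and of Ugt2b37, which had the widest spread, are shown because they are close copies, with 76.5% identical positions in a global alignment of 300 bases, and both hold the letters AGGTCA, the core letters bound by many nuclear receptors, shortly before the annotated start. The promoter of Ugt2b1, which also fell, is shown beside them because it has 53.2% identical positions to that of Ugt2b37 and none of these letters. The windows run from 250 bases before to 50 bases after the start on the strand of the gene, from RefSeq on GRCm38.p6, and AGGTCA is in capitals.
Ugt2b5 (chr5:87140291-87140590, minus strand): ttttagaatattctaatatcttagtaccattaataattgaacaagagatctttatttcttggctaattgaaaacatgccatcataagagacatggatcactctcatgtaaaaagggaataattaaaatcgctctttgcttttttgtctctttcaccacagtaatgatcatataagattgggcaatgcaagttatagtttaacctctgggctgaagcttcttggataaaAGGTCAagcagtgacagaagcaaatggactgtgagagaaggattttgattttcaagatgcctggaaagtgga
Ugt2b37 (chr5:87254739-87255038, minus strand): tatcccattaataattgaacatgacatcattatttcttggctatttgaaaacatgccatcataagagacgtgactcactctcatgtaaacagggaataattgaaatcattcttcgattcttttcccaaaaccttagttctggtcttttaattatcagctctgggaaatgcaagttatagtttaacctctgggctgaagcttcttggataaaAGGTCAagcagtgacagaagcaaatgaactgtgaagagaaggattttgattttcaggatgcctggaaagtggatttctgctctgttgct
Ugt2b1 (chr5:86926454-86926753, minus strand): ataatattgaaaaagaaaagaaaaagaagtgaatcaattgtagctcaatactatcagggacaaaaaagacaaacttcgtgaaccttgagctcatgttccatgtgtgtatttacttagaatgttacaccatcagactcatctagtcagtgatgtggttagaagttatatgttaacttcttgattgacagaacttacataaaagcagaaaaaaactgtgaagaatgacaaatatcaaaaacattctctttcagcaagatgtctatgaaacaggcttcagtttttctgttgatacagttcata

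Of the 46 members, 42 have at least 1 window in the RefSeq table, 51 windows in all. AGGTCA on either strand was found in 9 of the 42 members (Gstk1, Gstm1, Ugt1a7c, Ugt1a9, Ugt2b5, Ugt2b35, Ugt2b36, Ugt2b37 and Ugt2b38) and in 17.6% of the member windows, against 16.3% of all 32851 windows of the same length. The letters TGACNNNGC, a form of the antioxidant response element bound by NRF2, stood in Gsta3, Gstm5, Gstm7 and Mgst1, in 7.84% of the member windows against 12.4% of all. The letters GTTAAT, letters bound by HNF1, stood in 7 members, in 13.7% of their windows against 7.1% of all: Gsta3, Ugt1a1, Ugt1a6a, Ugt1a9, Ugt1a10, Ugt2a3 and Ugt3a1. The letters GCGTG, bound by AHR, stood in 9 members (19.6% of their windows against 32.4% of all), TTCNNNGAA, bound by STAT5, in 5 (9.8% against 8.3%) and TATAAA, the TATA box, in 8 (15.7% against 13.6%). Both strands were searched, and 1 pair of matches of different motifs overlapped. The match in Mgst1, which fell and has the highest level per kb, is shown in capitals on the plus strand of chromosome 6, where the reverse complement of the motif stands.
Mgst1 (chr6:138140277-138140576, plus strand): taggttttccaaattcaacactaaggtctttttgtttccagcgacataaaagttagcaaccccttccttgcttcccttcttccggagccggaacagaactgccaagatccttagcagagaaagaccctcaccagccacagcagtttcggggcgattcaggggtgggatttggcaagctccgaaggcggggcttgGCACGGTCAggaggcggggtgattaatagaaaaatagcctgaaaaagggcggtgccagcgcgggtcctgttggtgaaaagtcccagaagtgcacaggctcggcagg

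The Ugt3a genes, whose enzymes transfer sugars other than glucuronate, did not pass. Ugt3a1 had 45.4, 46.0, 44.8, 48.8 and 55.9 CPM in the Adult and 23.3, 8.22, 47.2, 29.1 and 1.62 CPM in the Old mice, with O3 within the Adult range and O5 lowest, and a log2 fold change of -1.14 ± 0.53 (SE, adjusted p = 0.175 in edgeR), which was -0.53 without O2 and O5 (adjusted p = 0.106 in edgeR). Ugt3a2 had 324 ± 17.1 (SD, n = 5) and 236 ± 100.1 (SD, n = 5) CPM and a log2 fold change of -0.46 (adjusted p = 0.243 in edgeR), and of -0.07 without O2 and O5.

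**Figure D5:**
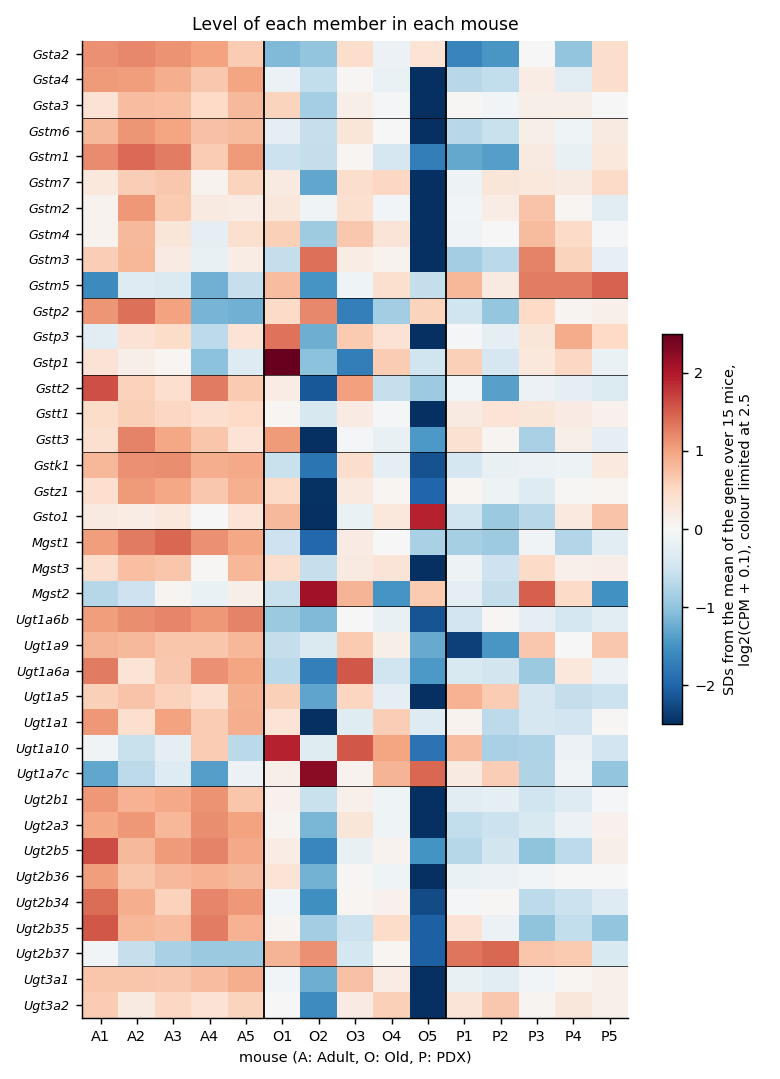
Level of the 38 tested members (rows, ordered by class) in each of the 15 mice (columns), as SDs from the mean of the gene over all mice on the log2(CPM + 0.1) scale, red above and blue below the mean. The O5 column is blue in most rows, O2 in many, and P1 and P2 are blue for Gsta2, Gstm1 and Ugt1a9 and red for Ugt2b37.

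Between PDX and Old, the comparison that addresses the treatment, the test of edgeR called 0 of the 38 members at an adjusted p under 0.25, as 0 of all 15808 genes did (0%), and the smallest adjusted p of a member was 0.793. DESeq2 and limma also called 0. At an unadjusted p under 0.05, 2 of the 38 members (Gstm5 and Ugt1a7c) were found by edgeR, against 5.28% of all genes, and 2 each by DESeq2 and limma. Ugt1a7c had a log2 fold change of -1.02 ± 0.38 (SE) between PDX and Old and Gstm5 one of 0.29 ± 0.12 (SE), both with an adjusted p of 0.793 in edgeR. The third smallest p was that of Ugt1a10, with a log2 fold change of -0.73 ± 0.44 (SE). When O2 and O5 were left out, 4 of 39 members had an unadjusted p under 0.05 in edgeR, against 9.03% of all genes, and they were other members: Ugt1a10 (log2 fold change -1.22, adjusted p = 0.298), Ugt3a1 (-0.50), Ugt2b1 (-0.36) and Ugt2a3 (-0.31). The log2 fold change of Ugt1a7c was then -0.42 and that of Gstm5 0.17 (unadjusted p = 0.258 and 0.146 in edgeR), and none of the 39 passed after adjustment.

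By size, the log2 fold changes between PDX and Old ran from -1.02 (Ugt1a7c) to 1.27 (Ugt2b37), with a median of 0.15 against -0.07 over all genes, and 27 of the 38 had a higher mean in the PDX group, against 40.1% of all genes. This turned round without O2 and O5, where 9 of 39 members had a higher mean in the PDX group and 30 a lower one, against 48.3% and 51.7% of all genes, with a median of -0.18 against -0.01. The summed level of all members was 7446 ± 437 CPM in the PDX and 6606 ± 2323 CPM in the Old mice (SD, n = 5 each), and the 5 PDX mice lay between 6902 and 7897 CPM. Without O2 and O5 the Old mean was 8263 ± 404 CPM (SD, n = 3), above every PDX mouse, so the side on which the PDX mean lies depends on these 2 mice. By class, the PDX mean was 66.1% of the Adult mean for Gsta, 56.7% for Gstm, 110% for Gstp, 72.9% for Gstt, 73.5% for the kappa, omega and zeta classes, 57.0% for Mgst, 71.9% for Ugt1a, 59.7% for Ugt2 and 88.7% for Ugt3a.

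Within the PDX group, P1 and P2 differed from P3, P4 and P5 in several members. Gstm1 stood at 453 and 431 CPM in P1 and P2 and at 760 to 944 CPM in the other 3 mice, Ugt1a9 at 7.73 and 15.2 against 47.9 to 80.7 CPM, and Gsta2 at 2.96 and 3.57 against 5.64 to 21.2 CPM. Ugt2b37 had the opposite order, at 135 and 163 against 4.51 to 37.7 CPM. Among the Old mice, O1 and O2 had the lowest Gsta2, at 5.05 and 5.59 against 12.4 to 21.4 CPM, and the highest Ugt2b37, at 50.6 and 90.1 against 0.0721 to 10.6 CPM. These mice were singled out after their values were seen, and the pattern was not tested.

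Between PDX and Adult, a comparison that shares the Adult mice with that of Old and Adult, 3 of the 38 members had an adjusted p under 0.05 in edgeR, and all 3 fell in the PDX group, where 0.898% of all genes fell and 1.76% rose. Mgst1 had a log2 fold change of -0.82 ± 0.18 (SE, adjusted p = 0.0294 in edgeR), Ugt1a6b one of -1.01 ± 0.21 (SE, adjusted p = 0.0197 in edgeR) and Ugt2b5 one of -0.94 ± 0.21 (SE, adjusted p = 0.0294 in edgeR). All PDX mice were below all Adult mice in 21 of 38 members, against 9.34% of all genes, and above in 1, Gstm5, against 10.5%. The median log2 fold change was -0.54, against -0.01 over all genes. Without O2 and O5, 22 of 39 members passed, where 24.6% of all genes did. Without a single mouse, the count was 0 (A2, A3, A5, P1 or P4), 1 (A1, A4 or P2), 2 (P3), 3 (O1 or O4), 5 (O3), 6 (P5), 13 (O2) or 16 (O5). The count over all genes, 420 with all mice, became 166 to 206 without an Adult mouse and 172 to 585 without a PDX mouse. It was 1766 without O2 and 1744 without O5.

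The genes around these enzymes were counted by lists of the glutathione and glucuronidation pathways, 47 genes of which 45 were tested. Between Old and Adult, 7 fell and 1 rose, where 2.07% of all genes fell and 4.71% rose. In the list of glutathione synthesis and recycling, Gclc, the catalytic subunit of the rate-limiting ligase, went from 298 ± 63.3 to 155 ± 41.2 CPM (mean ± SD, n = 5 each, here and below, log2 fold change -0.94, adjusted p = 0.0281 in edgeR). Gpx1, the glutathione peroxidase of the cytosol, went from 1736 ± 124 to 945 ± 257 CPM (log2 fold change -0.88, adjusted p = 0.0213 in edgeR). The other synthesis genes Gclm and Gss had log2 fold changes of -0.37 and 0.66 and did not pass (adjusted p = 0.0573 and 0.174 in edgeR). In the supply of UDP-glucuronate, Ugp2, which makes UDP-glucose, went from 401 ± 77.3 to 195 ± 48.7 CPM (log2 fold change -1.04, adjusted p = 0.0112 in edgeR), and Slc35d1, which carries UDP-glucuronate into the endoplasmic reticulum, from 103 ± 6.11 to 74.3 ± 14.8 CPM (log2 fold change -0.47, adjusted p = 0.0491 in edgeR). Ugdh, which oxidizes UDP-glucose to UDP-glucuronate, had a log2 fold change of -0.76 and did not pass (adjusted p = 0.0910 in edgeR).

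Of 7 conjugate transporters, Abcc2, the canalicular exporter of glutathione and glucuronide conjugates, and Abcc6 fell, with log2 fold changes of -0.63 and -1.06 (adjusted p = 0.0297 and 0.0418 in edgeR). Abcc3, the exporter to blood, went from 460.2 ± 33.1 to 196 ± 133 CPM, all Old mice below all Adult mice, and did not pass (adjusted p = 0.150 in edgeR). Dpep1, a dipeptidase of the mercapturate steps, was the 1 that rose (log2 fold change 1.52, adjusted p = 0.0319 in edgeR). None of 13 nuclear receptors and transcription factors passed between Old and Adult, among them Nfe2l2 (NRF2, log2 fold change -0.04), Nr1i3 (CAR, log2 fold change -0.72, adjusted p = 0.0876 in edgeR) and Nr1i2 (PXR, log2 fold change -0.67, adjusted p = 0.0526 in edgeR). Of 11 other target genes of these factors 1 fell, Cyp1a2, a cytochrome P450 controlled by AHR (log2 fold change -2.08, adjusted p = 0.0262 in edgeR). Between PDX and Adult, 5 of the 45 fell (Gclc, Ugp2, Abcc2, Nr1i3 and Cyp1a2) and none rose, where 0.898% of all genes fell and 1.76% rose. Between PDX and Old none passed, as 0% of all genes did.

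Markers of the cells of the liver moved beside these results. The counts of each list stand against 2.07% of all genes that fell and 4.71% that rose between Old and Adult. Of 8 general hepatocyte markers, Alb and Hnf4a among them, 0 passed between Old and Adult in either direction, and their summed level was 126991 to 141251 CPM in the Adult, 62338 to 206335 CPM in the Old (O5 lowest, O2 next with 77438 CPM) and 113339 to 166332 CPM in the PDX mice. Alb made up most of this sum, with an Adult mean of 111332 CPM. Of 8 pericentral hepatocyte markers 3 fell (Cyp2e1, Cyp1a2 and Oat), and the summed level of the list was 9769 to 12091 CPM in the Adult, 2792 to 6326 CPM in the Old and 3394 to 5034 CPM in the PDX mice. In the Adult mice Cyp2e1 made up most of this sum, with a mean of 6435 CPM. The log2 fold changes of the list between Old and Adult ran from -2.08 (Cyp1a2) to -0.02 (Rhbg). Of 8 periportal markers 2 fell (Gls2 and Ass1), and the sums were 10015 to 13610, 4716 to 11287 and 6059 to 10947 CPM.

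The Kupffer cell and macrophage list, with 0 of 7 markers past the threshold, summed to 457 to 689 CPM in the Adult mice and to 338 to 3302 CPM in the Old mice, with O2 the highest and O5 the lowest, and to 793 to 1647 CPM in the PDX mice. All 6 neutrophil and myeloid progenitor markers rose, where 4.71% of all genes rose, which is also the share for the lymphocyte and stellate lists below. Their sums were 2.24 to 5.52 CPM in the Adult, 9.39 to 191 CPM in the Old (O2 highest) and 13.7 to 64.1 CPM in the PDX mice. Of the lymphocyte markers 3 of 7 rose, with sums of 8.46 to 14.8, 14.4 to 132 (O2 highest) and 34.8 to 71.3 CPM in the Adult, Old and PDX mice. Of the stellate and fibroblast markers 3 of 7 rose, with sums of 344 to 382, 357 to 870 (O5 highest) and 339 to 636 CPM. No marker of the cholangiocyte or sinusoidal endothelial list passed between Old and Adult, and their sums were 38.3 to 51.3 and 310 to 336 CPM in the Adult, 51.5 to 98.3 and 153 to 299 CPM in the Old, and 53.5 to 105 and 247 to 336 CPM in the PDX mice. No listed marker had 0 counts in all mice. The part of these cell types in the changes of the conjugating enzymes was not tested.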

How the data were processed

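Liver RNA of 15 mice was sequenced as poly(A)-selected, strand-specific read pairs of 50 bases per end. Alignment by the authors to mm10 used STAR (version 2.6.0c), and they made counts of uniquely aligned proper pairs per gene with featureCounts (Subread 1.6.2). The counts are deposited without normalization. A second deposited table holds log2 values that the authors made with the variance stabilizing transformation (VST) of DESeq2 (version 1.23.10), used here only in 1 alternative. Pairs that fit several genes were not counted, which lowers genes with near copies.

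Symbols came from GENCODE M21 (55190 of 55450 gene IDs), on GRCm38, the assembly that mm10 names. Counts were filtered with filterByExpr (minimum count 10, minimum total 15) and fitted for all 15 mice, with 1 coefficient per group, by the quasi-likelihood test of edgeR (version 4.0.16, R 4.3.3) with TMM factors, two-sided, and Benjamini-Hochberg adjustment over all genes tested, with thresholds of 0.05 and, between PDX and Old, 0.25. Alternatives were DESeq2 (version 1.42.0), limma (version 3.58.1) on the VST values, which was added after the data were seen, other scaling, no filter, the 2 groups alone, thinned counts, a replicate block and left-out mice. Samples were grouped by their labels. Replicates are separate mice.

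The members and gene lists were chosen with earlier results of these data known. Named are the members past the threshold against Adult, the 3 per class highest per kb, the 3 members with the lowest unadjusted p for PDX against Old, the 5 largest and 5 smallest fold changes between Old and Adult, and, outside this rule, Gstm2, Gstm4 and Ugt1a6a to complete their classes and others where a count needed them. On simulated data of 15808 genes with 200 changed by 1 on the log2 scale between Old and Adult, edgeR made 50 calls, 49 of them true, and with 200 changed by 2 it made 177 calls, 164 true. DESeq2 made 152 calls, 106 true, and 225 calls, 179 true. With no gene changed, edgeR made 0 calls and DESeq2 made 8. Each gene was drawn on its own around its fitted dispersion, so no simulated mouse was set apart as O2 and O5 are. Protein sequences were not used here.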

Additional observations from a re-analysis of the deposited data

Results flagged for a closer look

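A mouse was taken as far from its group where its distance to the nearest other mouse exceeded 0.71 of the range of the group, Dixon's limit for 5 samples. Of 114 groups (38 members in 3 groups, on the log2 CPM scale), 8 met this, and chance alone gives about 1 in 20 groups. All 8 were low values, and 6 of them belonged to O5.

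In O5 the ratio was 0.776 for Gsta4 (9.05 CPM), 0.869 for Gstm2 (23.9 CPM), 0.729 for Gstm6 (6.06 CPM), 0.837 for Gstt1 (17.1 CPM), 0.728 for Mgst3 (1.73 CPM) and 0.776 for Ugt2b1 (13.1 CPM). In O2 it was 0.74 for Ugt1a1 (172 CPM), the gene of bilirubin conjugation, while O5 had 364 CPM of it, near O3. In the PDX group, P2 had a ratio of 0.796 for Gstt2 (32.2 CPM).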

How the results depend on the processing

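Between Old and Adult, the count of 11 members stayed within 1.5 times under DESeq2 (15), DESeq2 size factors, thinned counts, limma and the fit without O2 and O5. It was 4 with no low-count filter, 1 with only the 2 groups in the fit, 1 with the replicate block, and 1 to 16 when 1 mouse was left out, lowest (1 or 2) without any of the Adult mice, 5 without O2 and 7 without P3 or P4. Over all genes, the 1072 calls of the main fit became 665 of 29465 with no filter, 105 of 15040 with the 2 groups and 237 of 15808 with the block. They were 2524 with DESeq2 and 651 with limma, and 156 to 2178 when 1 mouse was left out. Between PDX and Adult, the count of 3 became 12 with DESeq2, 1 with no filter, 23 with only the 2 groups, 22 without O2 and O5, 5 with limma, and 0 to 16 when 1 mouse was left out, with 16 without O5, 13 without O2 and 0 without A2, A3, A5, P1 or P4. Over all genes, the 420 calls of the main fit became 1383 with DESeq2, 332 with no filter and 402 with limma. They were 4529 of 15297 with only the 2 groups and 4004 of 16275 without O2 and O5. Between PDX and Old the count of members was 0 under every setting run. O2 and O5 belong to neither group of the comparison of PDX and Adult. Without them its log2 fold change was -0.80 for Mgst1, -0.99 for Ugt1a6b and -0.92 for Ugt2b5, against -0.82, -1.01 and -0.94 with all mice. The cause of the differences between the counts was not tested. Ugt1a6b was past the threshold between Old and Adult under all 23 alternatives.

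The numbers in the sample names do not pair the mice, which are different animals. Within each group the numbers follow the count of frailty criteria that a mouse met, from fewest to most. The replicate block therefore groups mice of like rank in this count. The correlations of deviations of same-numbered mice ran from -0.215 to -0.11 between Adult and Old, from -0.0389 to 0.285 between Old and PDX and from -0.0469 to 0.146 between Adult and PDX. Their means were -0.168, 0.092 and 0.031 in this order, against 0.0435, -0.0225 and -0.0078 for mice of different numbers. With the replicate block, 1 member was called between Old and Adult, 0 between PDX and Old and 3 between PDX and Adult. Of all 15808 genes, 237, 0 and 316 were called with this block.

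Among the log2 fold changes of the 38 tested members between Old and Adult, 873 values under other settings kept direction and side of the threshold in 739, lost the call in 100, gained it in 19 and turned direction in 15, all of these in Gstm3, Gstm4, Gsto1 and the 3 Gstp genes. Without O2 and O5 this was Gstm4 (0.189), with the replicate block Gsto1 (-0.0482) and Gstp3 (-0.141), with limma Gsto1 (-0.0566) and Gstp3 (-0.232), and with thinned counts Gstp2 (0.0595). With 1 mouse left out, the range was -0.806 to 0.0914 for Gstm3, -0.169 to 0.237 for Gsto1, -0.156 to 0.365 for Gstp1, -0.384 to 0.008 for Gstp2 and -0.291 to 0.267 for Gstp3. Among 184 values of members named in the 2 PDX comparisons, 151 kept direction and side of the threshold, 26 lost the call (Mgst1, Ugt1a6b and Ugt2b5 against Adult), 7 gained it (Ugt2b37 against Adult) and 0 turned direction. Depth limits Gstp2, Mgst2, Ugt1a7c and Ugt1a10 most, which had at most 3.28 CPM in any mouse.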
